A study of Mus musculus with 12 samples.

Results

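Expression of 6 genes of the B lineage, Cd22, Cd79a, Cd79b, Blk, Jchain and Ms4a1, was examined in mouse back skin. They were chosen by symbol, and all 6 had a row among the 18505 genes of the FPKM table. FPKM counts fragments per kilobase of transcript, so levels of different genes can be set side by side. It is also scaled for sequencing depth, so samples can be compared. Skin was sampled on day 10 as 12 samples, 4 per group, from male wild-type BALB/c mice that were 5 to 6 weeks old as supplied. The control group received petroleum jelly, a treatment that the labels give as white space handling. The IMQ + NS group received imiquimod (IMQ) cream, which produces a psoriasis-like dermatitis. After 6 h it received a cover of saline (NS), held by gauze and polyurethane film. The IMQ + BZLF group received the same cream and then the Banzhilian formula (BZLF), a herbal preparation, in place of saline, under the same gauze and film. The study's methods name no such cover for the control group. In comparisons with control, imiquimod and the cover therefore cannot be told apart. Treatment was daily for 10 days, and the BZLF dose of the sequenced mice is not given in the sources used here.

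B cells recognise antigen with a membrane immunoglobulin that signals through a heterodimer of CD79A and CD79B. The cytoplasmic tails of this pair carry an immunoreceptor tyrosine-based activation motif (ITAM), whose tyrosines are phosphorylated by Src-family kinases such as BLK and LYN. CD22 is a sialic acid-binding inhibitory co-receptor that recruits the phosphatase SHP-1, MS4A1 (CD20) is a surface protein of mature B cells, and the J chain, made by plasma cells, joins the units of polymeric IgA and IgM. Healthy skin holds few B cells. Some of these genes are also transcribed outside the lineage, and Blk is known in IL-17-producing gamma delta T cells.

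The question put to the data was how these genes differed between normal skin, IMQ-treated skin and skin treated with IMQ and BZLF. In IMQ + NS samples Cd22, Cd79b, Blk and Jchain were higher than in control samples, with ratios of the mean FPKM of 7.90, 3.10, 2.69 and 6.72, respectively. In IMQ + BZLF samples Cd79b was lower than in IMQ + NS samples, with a mean of 1.54 ± 0.387 against 4.18 ± 0.862 FPKM (SD, n = 4 each). The other 4 tested genes did not pass the threshold in that comparison. Cd79a was low in most samples and Ms4a1 in every sample.

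The 2 stretches below are shown because they encode the ITAMs by which the Cd79a and Cd79b products signal, the pair whose RNA levels are compared here. They were read from the GENCODE transcripts of the mm10 build, 5′ to 3′ on the coding strand, so the intron is absent. Capitals mark the codons of the 2 tyrosines and of the 2 leucine or isoleucine residues of each motif. The Cd79a stretch spans exons 4 and 5 of 5 (chr7:24901287-24901469, plus strand), and the Cd79b stretch spans exons 5 and 6 of 6 (chr11:106311867-106312021, minus strand).
Cd79a: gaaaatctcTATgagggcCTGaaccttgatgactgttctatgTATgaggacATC
Cd79b: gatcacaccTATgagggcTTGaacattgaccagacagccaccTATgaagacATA
Of the 54 bases, 35 were identical between the genes (64.8%), and 10 of the 18 codons encoded the same residue.

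The sequences before the starts of Cd22 and Jchain, the genes with the largest ratios between IMQ + NS and control samples, were taken from RefSeq (GRCm38.p6, 250 bases each, ending just before the start that RefSeq gives). RefSeq promoter entries matched 3 of the 6 genes, and Cd79b, Blk and Ms4a1 had none. Capitals mark the palindrome bound by the B cell factor EBF1 (TCCC and GGGA with any 2 bases between them). The Cd22 sequence lies at chr7:30879029-30879278 and the Jchain sequence at chr5:88527898-88528147, both on the minus strand. The Cd22 window lies inside the gene span given further on, in which other transcripts start upstream.
Cd22: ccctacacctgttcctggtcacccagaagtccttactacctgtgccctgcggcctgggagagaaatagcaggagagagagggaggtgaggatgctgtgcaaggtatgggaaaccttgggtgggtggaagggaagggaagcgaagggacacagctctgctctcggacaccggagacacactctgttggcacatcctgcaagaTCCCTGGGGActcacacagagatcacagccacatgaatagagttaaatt
Jchain: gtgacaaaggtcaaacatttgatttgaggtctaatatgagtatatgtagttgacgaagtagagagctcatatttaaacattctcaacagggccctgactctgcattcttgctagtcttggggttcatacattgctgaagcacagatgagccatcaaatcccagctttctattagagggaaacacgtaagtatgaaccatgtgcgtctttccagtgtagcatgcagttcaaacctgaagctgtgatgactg
The palindrome was found once before Cd22 and in 0.78% of 32841 mouse promoters of the same length. Searched on both strands, the octamer ATGCAAAT (1.6% of promoters), the TATA box TATAAA (12.4%) and the Ets letters CAGGAAGT (2.69%) had no match before either gene. The Ets letters were chosen after the Cd79a promoter, where they occur once, had been seen. These matches are descriptions of the letters only, since binding was not measured.

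In the mm10 annotation Cd22 lies at chr7:30865402-30880342 (minus strand, 16 exons), Cd79a at chr7:24897381-24902197 (plus strand, 5 exons) and Cd79b at chr11:106311341-106314762 (minus strand, 6 exons). Blk lies at chr14:63372836-63417037 (minus strand, 13 exons), Jchain at chr5:88519809-88527891 (minus strand, 4 exons) and Ms4a1 at chr19:11249675-11266241 (minus strand, 7 exons). Cd22 overlaps the antisense gene Gm29439 and Ms4a1 the antisense gene 4930526L06Rik. Whether counting used the strand is not given in the sources used here, so reads of these 2 genes and of their antisense partners cannot be told apart.

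The FPKM values were whole multiples of a fixed step per gene, so the number of fragments behind each value could be rebuilt. All 954 low genes examined gave whole counts within 0.002, and after a random shift of the values none did (0%). The samples held 38246616 to 40954090 counted fragments each. That depth rests on the smallest transcript lengths that make every step whole. Control replicate 2 stood apart from its group, with a mean correlation of 0.953 with the other controls over the tested genes, where the other samples had 0.974 to 0.988 with their own groups. Without it the log2 fold changes of IMQ + NS against control were 1.71 for Cd22, 0.63 for Cd79a, 1.62 for Cd79b, 1.05 for Blk and 2.61 for Jchain, and 4 genes were again called higher. The intervals quoted for single samples are exact Poisson 95% intervals of the count, converted to FPKM, and cover counting error only. The samples of a group are taken as separate mice, which the labels do not state, and if they were not, the p-values measure a spread that may be technical.

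**Figure D1:**
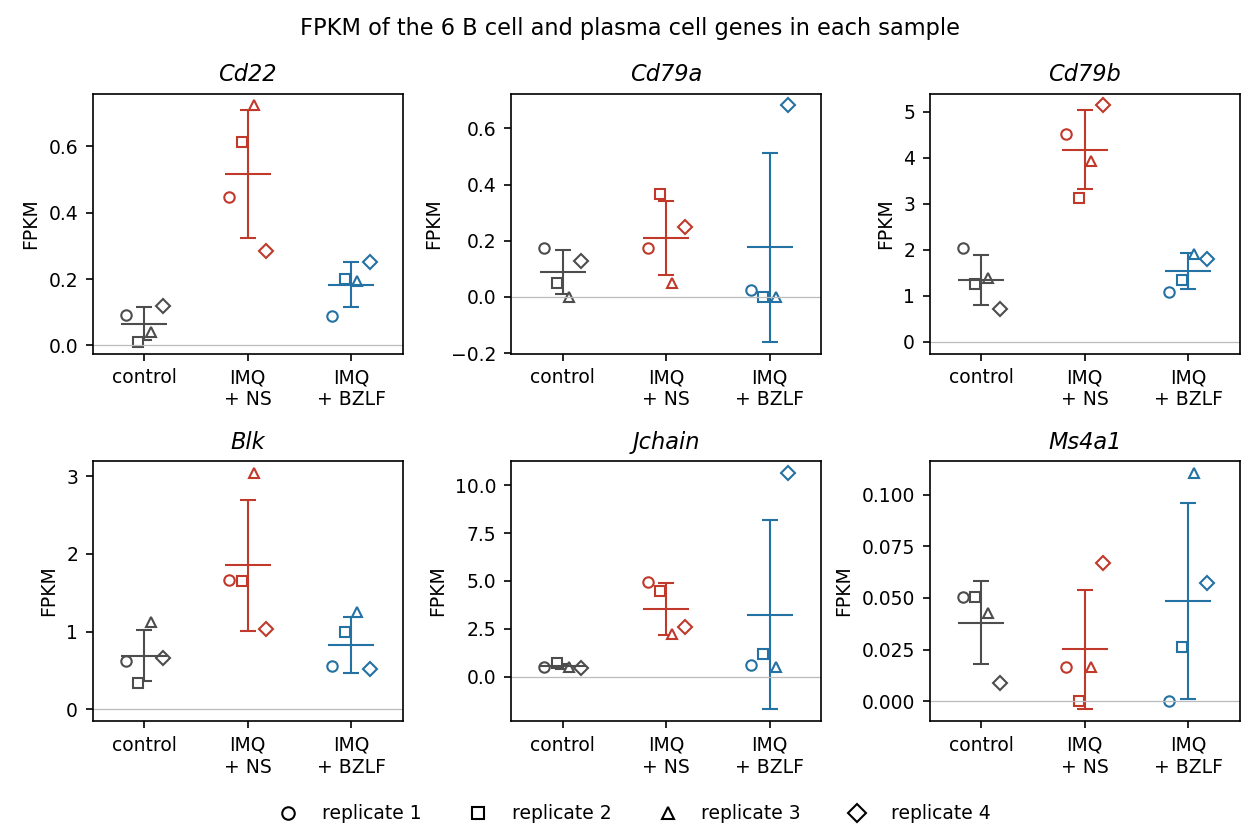
FPKM (vertical axis, linear and scaled per gene) of the 6 genes in each sample, by group. Symbols are replicates 1 to 4, which were not treated as paired between groups, the long bar is the group mean and the whiskers are 1 SD (n = 4). Cd22 and Cd79b separate IMQ + NS from both other groups, while the Cd79a and Jchain means of the IMQ + BZLF group are drawn up by replicate 4, at 0.682 and 10.7 FPKM.

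Cd79b, the signalling chain of the B cell receptor with the higher level of the pair, stood at 2.03, 1.26, 1.39 and 0.712 FPKM in control replicates 1 to 4. It stood at 4.53, 3.12, 3.94 and 5.14 FPKM in IMQ + NS samples and at 1.09, 1.35, 1.91 and 1.80 FPKM in IMQ + BZLF samples. Every IMQ + NS sample was above every sample of the other groups, and the control and IMQ + BZLF samples overlapped. These values rested on 34 to 100 fragments per control sample, 147 to 254 per IMQ + NS sample and 52 to 93 per IMQ + BZLF sample. In a linear model over all tested genes (limma on log2(FPKM + 0.1), 4 against 4), the log2 fold change of IMQ + NS against control was 1.62 (SE 0.29, adjusted p = 0.00148). IMQ + BZLF against IMQ + NS gave a log2 fold change of -1.39 (SE 0.20, limma adjusted p = 0.00675). Both differences had an exact two-sided permutation p of 0.0286, the smallest that 4 against 4 samples allow. Against control, the log2 fold change of the IMQ + BZLF group was 0.23 (95% interval -0.45 to 0.91, limma adjusted p = 0.54), an interval that holds both no difference and a difference of either sign. Cd79b had been named among the core targets that the study selected on these same samples, so that choice is not independent evidence of its direction.

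Cd79a, the partner chain, was much lower. Its control values were 0.175, 0.0499, 0 and 0.129 FPKM, and its IMQ + NS values were 0.174, 0.365, 0.0496 and 0.249 FPKM. IMQ + BZLF samples 1 to 4 had 0.0257, 0, 0 and 0.682 FPKM. The highest value of the 12 was IMQ + BZLF replicate 4 and the listed zeros fell in the control and IMQ + BZLF groups, so all groups overlapped. The summed counts were 14 fragments for control, 33 for IMQ + NS and 29 for IMQ + BZLF samples, and of the last 28 came from replicate 4. At 0 fragments, a count of up to 3 remains possible, so the zeros set no absence of the transcript. The log2 fold change of IMQ + NS against control was 0.70 (SE 0.43, 95% interval -0.27 to 1.68, limma adjusted p = 0.188). For IMQ + BZLF it was -0.69 against IMQ + NS (95% interval -2.20 to 0.82, limma adjusted p = 0.59) and 0.02 against control (95% interval -1.52 to 1.55, limma adjusted p = 0.987). No difference of Cd79a was detectable at this depth, and the direction against control changed without IMQ + BZLF replicate 4, where the log2 fold change was -0.70, as it did under other settings.

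Blk, the Src-family kinase, had 0.627, 0.333, 1.13 and 0.666 FPKM in control samples. The IMQ + NS samples had 1.67, 1.66, 3.04 and 1.04 FPKM, and the IMQ + BZLF samples 0.552, 0.999, 1.25 and 0.513 FPKM. IMQ + NS replicate 4 lay below control replicate 3, and also below IMQ + BZLF replicate 3, so the groups overlapped by 1 sample on each side. The group sums were 268, 729 and 322 fragments for control, IMQ + NS and IMQ + BZLF. The log2 fold change of IMQ + NS against control was 1.31 (SE 0.37, limma adjusted p = 0.0163), with an exact two-sided permutation p of 0.0571. IMQ + BZLF against IMQ + NS gave -1.06 (SE 0.35, 95% interval -1.84 to -0.28, limma adjusted p = 0.111), which did not pass the threshold after adjustment. Against control it was 0.25 (95% interval -0.58 to 1.08, limma adjusted p = 0.585).

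Cd22, the inhibitory co-receptor, was at 0.0931, 0.0109, 0.0392 and 0.118 FPKM in control samples and at 0.446, 0.612, 0.724 and 0.284 FPKM in IMQ + NS samples. In IMQ + BZLF samples it was at 0.0902, 0.199, 0.194 and 0.251 FPKM. All IMQ + NS samples were above all samples of the other groups, although the lowest, replicate 4, was close to IMQ + BZLF replicate 4 and their counting intervals (0.212 to 0.372 and 0.185 to 0.334 FPKM) overlapped. Of the IMQ + BZLF samples, replicate 1 lay within the control range. The sums were 47, 374 and 133 fragments for control, IMQ + NS and IMQ + BZLF. IMQ + NS against control gave a log2 fold change of 1.89 (SE 0.31, limma adjusted p = 0.00108) and an exact two-sided permutation p of 0.0286. The constant of 0.1 is larger than most control values of Cd22, so the fitted change is smaller than the ratio of the means. For IMQ + BZLF against IMQ + NS the log2 fold change was -1.10 (SE 0.28, 95% interval -1.74 to -0.45), with an exact permutation p of 0.0286 and a limma adjusted p of 0.0544, just over the threshold. Against control it was 0.79 (SE 0.30, limma adjusted p = 0.0485), a difference under the required log2 size of 1, with an exact permutation p of 0.0857. Like Cd79b, Cd22 was among the core targets that the study selected on these samples. The study's rule was a DESeq2 p under 0.05, with no adjustment named, and a change of the size required here. Core targets were then taken by centrality in a protein network of the genes shared between its comparisons.

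Ms4a1 was near its floor throughout. The values were 0.0504, 0.0504, 0.0429 and 0.00865 FPKM in control samples, and 0.0167, 0, 0.0167 and 0.0669 FPKM in IMQ + NS samples. IMQ + BZLF samples had 0, 0.0262, 0.111 and 0.0574 FPKM. All 3 groups overlapped, and the 12 samples together rested on 18, 12 and 23 fragments for control, IMQ + NS and IMQ + BZLF. The mean stayed under 0.1 FPKM, so the gene did not enter the linear model. The exact two-sided permutation p was 0.457 for IMQ + NS against control, 0.429 for IMQ + BZLF against IMQ + NS and 0.857 for IMQ + BZLF against control, and no difference was detectable at this depth.

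Jchain, the plasma cell gene of the group, was at 0.488, 0.714, 0.487 and 0.429 FPKM in control samples and at 4.97, 4.45, 2.20 and 2.60 FPKM in IMQ + NS samples. In IMQ + BZLF samples it was at 0.600, 1.19, 0.506 and 10.7 FPKM. Every IMQ + NS sample was above every control sample. In the IMQ + BZLF group, replicates 1 to 3 lay below all IMQ + NS samples, while replicate 4 was the highest of the 12, with 918 fragments (9.98 to 11.4 FPKM). IMQ + NS against control gave a log2 fold change of 2.48 (SE 0.28, limma adjusted p = 0.000145) and an exact permutation p of 0.0286. IMQ + BZLF against IMQ + NS gave -1.15 (SE 0.81, 95% interval -2.99 to 0.69, limma adjusted p = 0.444), and IMQ + BZLF against control gave 1.33 (SE 0.81, 95% interval -0.51 to 3.17, limma adjusted p = 0.195). Without IMQ + BZLF replicate 4, the former was -2.08 (limma adjusted p = 0.018) and passed the threshold.

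Within a group the genes differed in level by orders of magnitude per length. In control samples the mean FPKM was 1.35 ± 0.543 for Cd79b, 0.688 ± 0.327 for Blk, 0.529 ± 0.126 for Jchain, 0.0883 ± 0.0783 for Cd79a, 0.0654 ± 0.0491 for Cd22 and 0.0381 ± 0.0199 for Ms4a1 (SD, n = 4). Blk and Jchain did not differ there beyond their spread, nor did Cd79a, Cd22 and Ms4a1. In IMQ + NS samples the order was Cd79b at 4.18 ± 0.862, Jchain at 3.55 ± 1.36, Blk at 1.85 ± 0.848, Cd22 at 0.517 ± 0.193, Cd79a at 0.209 ± 0.132 and Ms4a1 at 0.0251 ± 0.0290 FPKM. There the SDs of Cd79b and Jchain overlapped. Cd22 was below Cd79a in the mean of the control group and above it in all 4 IMQ + NS samples. In IMQ + BZLF samples Jchain had the highest mean, 3.24 ± 4.96 FPKM, an SD above the mean that comes from 1 sample, followed by Cd79b at 1.54 ± 0.387, Blk at 0.828 ± 0.357, Cd22 at 0.184 ± 0.0674, Cd79a at 0.177 ± 0.337 and Ms4a1 at 0.0485 ± 0.0475 FPKM. Cd22 and Cd79a did not differ there beyond their spread.

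**Figure D2:**
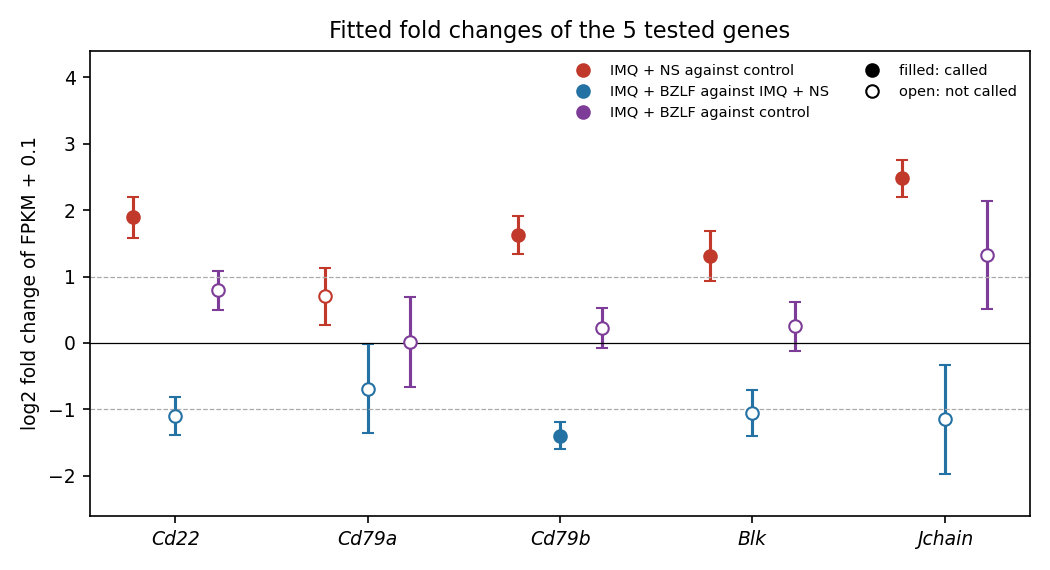
Fitted log2 fold changes (vertical axis, of FPKM + 0.1) of the 5 genes that entered the linear model, in 3 comparisons of 4 against 4 samples. Whiskers are 1 SE, dashed lines mark a log2 change of 1 in size, and filled points passed both the adjusted p and the size. The comparison of IMQ + NS with control has 4 filled points above 0, that of IMQ + BZLF with IMQ + NS has 1 below 0 (Cd79b, -1.39), and that of IMQ + BZLF with control has none.

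Of the 5 genes tested, 4 were called higher in IMQ + NS than in control samples, where 11.4% of the 15288 tested genes were called higher, and 0 were called lower (11% of all genes). Calling required a limma adjusted p under 0.05 and a log2 change larger than 1 in size. With BZLF relative to saline, 1 of the 5 was called lower and 0 higher, against 2.2% of all genes called lower and 0.321% called higher. In IMQ + BZLF versus control samples 0 of the 5 were called higher, against 9.65% of all genes, and 0 lower, against 10.1%. Without the limit on size, 1 gene (Cd22) was higher there at an unadjusted limma p under 0.05 and 0 were lower, where 27.4% of all genes were higher and 32.2% lower by that rule. By limma-voom on the rebuilt counts 1 was called higher (Cd22) and 0 lower, against 10.7% and 11% of all genes. At an unadjusted limma p under 0.05 with the same size, 3 genes were lower in IMQ + BZLF than in IMQ + NS samples, namely Cd22, Cd79b and Blk, against 2.64% of all genes. The median log2 fold changes of the 5 genes were 1.62, -1.10 and 0.25 in the 3 comparisons in that order, and those of all tested genes were 0.05, -0.02 and -0.02. The comparisons share samples, so their values are set side by side and not as repeats of one another. In bulk skin, fewer cells of a type and less RNA per cell cannot be told apart.

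Over the 12 samples the 6 genes were compared in pairs. Pearson's r of log2(FPKM + 0.1) was 0.798 between Cd22 and Blk, 0.739 between Cd22 and Cd79b and 0.748 between Cd79a and Jchain, whereas between Cd79a and Cd79b, which act as a heterodimer, it was 0.369. After the group means were subtracted, the value for Cd79a and Jchain was 0.808, that for Cd22 and Blk 0.52 and those for Cd22 and Cd79b and for Cd79a and Cd79b -0.117 and 0.127. Without IMQ + BZLF replicate 4, with group means left in, the r of Cd79a and Jchain was 0.597. Without it the r of Jchain was higher with the other tested genes, at 0.822 with Cd22 (0.705 with all samples), 0.822 with Cd79b (0.625) and 0.634 with Blk (0.295), and that of Cd79a and Cd79b was 0.517. The r of Ms4a1, a gene near its floor, with the other 5 genes lay between -0.269 and 0.109 over all 12 samples. After the group means were subtracted, it was 0.798 with Cd79b and between -0.164 and 0.0359 with the rest. These are descriptions over 12 points that share libraries and groups.

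Among 13621 other genes with a mean of at least 0.5 FPKM, the 3 genes most like each member over the 12 samples were not genes of the lineage lists described next. The highest r with Cd22 belonged to Mal2 (0.969, and 0.858 after group means were subtracted), Sidt2 (0.951 and 0.749) and Il1f6 (0.949 and 0.705). With Cd79b it belonged to Pdcd1 (0.94 and 0.673), Klra17 (0.939 and 0.689) and Siglece (0.939 and 0.694). With Blk it belonged to Tprg (0.94 and 0.873), Clec2f (0.928 and 0.884) and Sdcbp2 (0.924 and 0.856). Pdcd1 encodes the inhibitory receptor PD-1 and Il1f6 the epidermal cytokine IL-36 alpha. Lower values were reached for Jchain, with 2900026A02Rik (0.916 and 0.877), Phlpp1 (0.903 and 0.797) and Zfp729b (0.873 and 0.755), and for Cd79a, with Klhl36 (0.755 and 0.906), Maip1 (0.739 and 0.792) and Syne3 (0.735 and 0.719). With so many genes and 12 samples high values arise by the choice alone, and no p is given.

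The label of the gene group was checked against further markers of B cells. Pax5, the master transcription factor of the lineage, had between 0 and 0.0318 FPKM in the 12 samples, and Cr2, the complement receptor of mature B cells, had between 0 and 0.00753 FPKM with 10 of 12 samples at 0. Cxcr5, the follicular homing receptor, had between 0 and 0.0754 FPKM. These 3 markers, like Ms4a1, were at or near 0 in every group, including IMQ + NS samples, where Cd79b reached 5.14 FPKM. Some other surface genes of the lists had higher means than these 3 markers in IMQ + NS samples. Of them, Fcrl1 and Fcmr stayed under a mean of 0.1 FPKM over the 12 samples and were not tested. Fcrl1, an Fc receptor-like protein of B cells, had a mean of 0.0215 ± 0.0141 FPKM in control, 0.187 ± 0.0942 FPKM in IMQ + NS and 0.0747 ± 0.0138 FPKM in IMQ + BZLF samples (SD, n = 4). Fcmr, the IgM Fc receptor, had 0.0212 ± 0.0210, 0.221 ± 0.144 and 0.0418 ± 0.0410 FPKM in the same order. It was at 0 FPKM in control replicate 1 and IMQ + BZLF replicate 1, and at 0.0175 FPKM in IMQ + NS replicate 2. Fcer2a, the low-affinity IgE receptor CD23, had 0.370 ± 0.243, 0.630 ± 0.295 and 0.435 ± 0.271 FPKM, and Tnfrsf13c, the receptor of the survival factor BAFF, had 0.223 ± 0.0997, 1.15 ± 0.331 and 1.59 ± 0.618 FPKM. The markers named here were picked after their values had been seen. The immunoglobulin constant genes were not analysed here.

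Lists of other B lineage genes held 86 genes, of which 73 were in the table and 66 were tested. In IMQ + NS versus control samples 8 of the 66 were called higher and 9 lower, with a median log2 fold change of 0.20 beside 0.05 for all genes. The called shares lie close to the 11.4% and 11% of all genes called in each direction. After BZLF, relative to IMQ + NS samples, 11 of the 66 were called lower and 0 higher, where 2.2% of all genes were called lower and 0.321% higher, with a median of -0.39 beside -0.02. At an unadjusted limma p under 0.05, whatever the size, 33 were lower and 3 higher, against 14.8% and 7.96% of all genes. Limma-voom called 13 lower and 0 higher, against 2.11% and 0.393% of all genes. In IMQ + BZLF versus control samples 3 were called higher and 11 lower, where 9.65% and 10.1% of all genes were called, with a median of -0.42 beside -0.02.

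**Figure D3:**
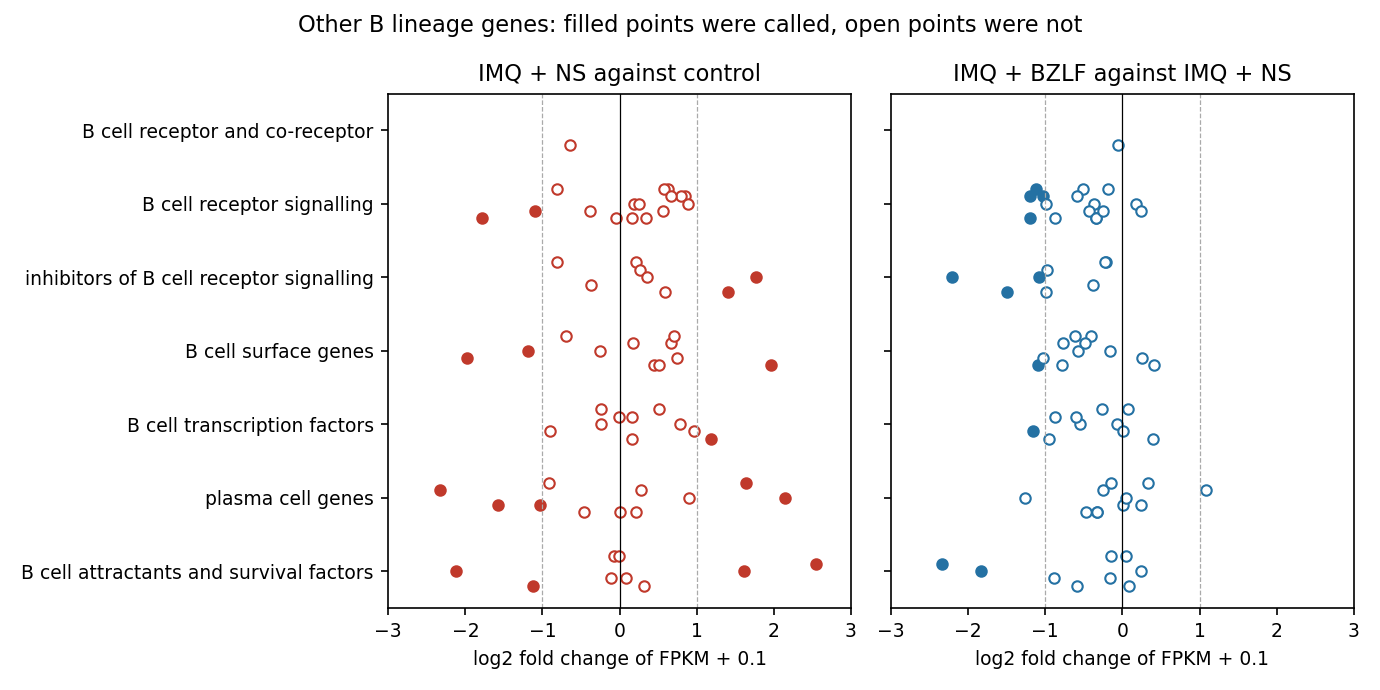
Log2 fold changes (horizontal axis, of FPKM + 0.1) of the tested genes of 7 B lineage lists, in IMQ + NS against control (left) and IMQ + BZLF against IMQ + NS (right). Each point is a gene, filled where it was called, and dashed lines mark a log2 change of 1 in size. On the left 8 filled points lie above 0 and 9 below, and on the right all 11 lie below 0.

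Kinases and adaptors act after the CD79 pair. Of 16 such receptor signalling genes, 0 were called higher and 2 lower in IMQ + NS versus control samples, the scaffold gene Bank1 (log2 fold change -1.79) and Rasgrp3 (-1.09), a Ras activator. Of all genes, 11.4% were called higher and 11% lower there, so the 2 of 16 lie close to that share. Relative to IMQ + NS samples, 4 of the 16 were called lower and 0 higher in the IMQ + BZLF group, against 2.2% and 0.321% of all genes. The 4 included Lyn (-1.12, limma adjusted p = 0.0122), which phosphorylates the ITAMs, Vav1 (-1.19, limma adjusted p = 0.0115) and Pik3ap1 (-1.19, limma adjusted p = 0.00151). Lyn and Vav1 are also used by myeloid and T cells, respectively, so neither marks B cells alone.

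CD22 is one of several inhibitors of the receptor. Of 8 others, 2 were called higher and 0 lower in IMQ + NS versus control samples, Cd72 (1.77) and Cd5 (1.41). The shares of all genes were 11.4% higher and 11% lower there, and 2.2% lower in IMQ + BZLF versus IMQ + NS samples. Lower in IMQ + BZLF than in IMQ + NS samples were 3 genes, Cd72 (-2.21, limma adjusted p = 0.00354), Ptpn22 (-1.49, limma adjusted p = 0.0132) and Ptpn6 (-1.08, limma adjusted p = 0.00157). Ptpn6 encodes SHP-1, the phosphatase that CD22 recruits, and Cd72 encodes another inhibitory co-receptor. Cd72 ranged from 3.40 to 4.54 FPKM in control, from 9.83 to 17.9 FPKM in IMQ + NS and from 1.61 to 3.79 FPKM in IMQ + BZLF samples, with IMQ + NS above both other groups.

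The next 3 lists are again set beside all genes, of which 11.4% were called higher and 11% lower in IMQ + NS versus control samples. In IMQ + BZLF versus IMQ + NS samples 2.2% were called lower. Among 11 tested surface genes, Tnfrsf13c was called higher in IMQ + NS versus control samples (1.97), and Cd74 (-1.98) and H2-Ob (-1.19), which serve antigen presentation, were called lower. Cd180 alone was called lower in IMQ + BZLF versus IMQ + NS samples (-1.09, limma adjusted p = 0.014). Among 10 transcription factors, 1 was called higher in the first comparison, Ikzf3 (1.18), and 1 lower in the second, Pou2f2 (-1.16, limma adjusted p = 0.0305). The 9 attractants and survival factors had 2 called higher and 2 lower in IMQ + NS versus control samples, with Cxcl13 (2.55) and Ltb (1.62) higher and Ccl21a (-2.12) and Ccl19 (-1.12) lower. Cxcl13, which attracts B cells, and Ltb, a lymphotoxin chain, were the 2 called lower in IMQ + BZLF versus IMQ + NS samples (-2.34, limma adjusted p = 0.00718, and -1.83, limma adjusted p = 0.0282). Cxcl13 ranged from 5.21 to 17.8 FPKM in control, from 32.5 to 94.0 FPKM in IMQ + NS and from 9.38 to 20.1 FPKM in IMQ + BZLF samples. The list of receptor and co-receptor genes had 1 tested gene of 9, Cd81, which was called in neither comparison.

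Beside Jchain, 11 other plasma cell genes were tested. In IMQ + NS versus control samples 2 were called higher, Prdm1 (2.15) and Sdc1 (1.65), and 3 lower, Tnfrsf17 (-2.33), Irf4 (-1.57) and Slamf7 (-1.03). Of all genes, 11.4% were called higher and 11% lower there. Tnfrsf17 encodes the plasma cell receptor BCMA, and Prdm1 and Sdc1 are also transcribed in keratinocytes. Sdc1 averaged 71.8 ± 16.5 FPKM in control and 221 ± 14.5 FPKM in IMQ + NS samples (SD, n = 4), far above the level of Jchain. Between IMQ + BZLF and IMQ + NS samples 0 of the 11 were called by limma, against 0.321% of all genes higher and 2.2% lower. At an unadjusted limma p under 0.05, whatever the size, 2 were higher and 2 lower, against 7.96% and 14.8% of all genes.

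IMQ + BZLF replicate 4, the sample with the highest Jchain and Cd79a, also had the highest Mzb1 (0.808 FPKM) and Pou2af1 (0.323 FPKM) of the 12, genes of immunoglobulin assembly and of B cell transcription that were picked after their values had been seen. In the other 3 IMQ + BZLF samples Mzb1 was at 0.0839 to 0.201 FPKM and Pou2af1 at 0.00988 to 0.0710 FPKM. Of the 11 plasma cell genes, Mzb1 was the only 1 highest of the 12 in that sample, and 8 of the 11 lay within the range of the other IMQ + BZLF samples. Among these 8, Tnfrsf17 was at 0.559 FPKM, below replicates 2 and 3, and Derl3, of the degradation machinery of the endoplasmic reticulum, was at 0.127 FPKM, also below replicates 2 and 3. Pou2af1 was likewise the only 1 of 11 transcription factor genes to be highest of the 12 there. In that replicate Cd79b (1.80 FPKM) lay within the range of the other IMQ + BZLF samples, Blk (0.513 FPKM) was the lowest of the group and Cd22 (0.251 FPKM) the highest.

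**Figure D4:**
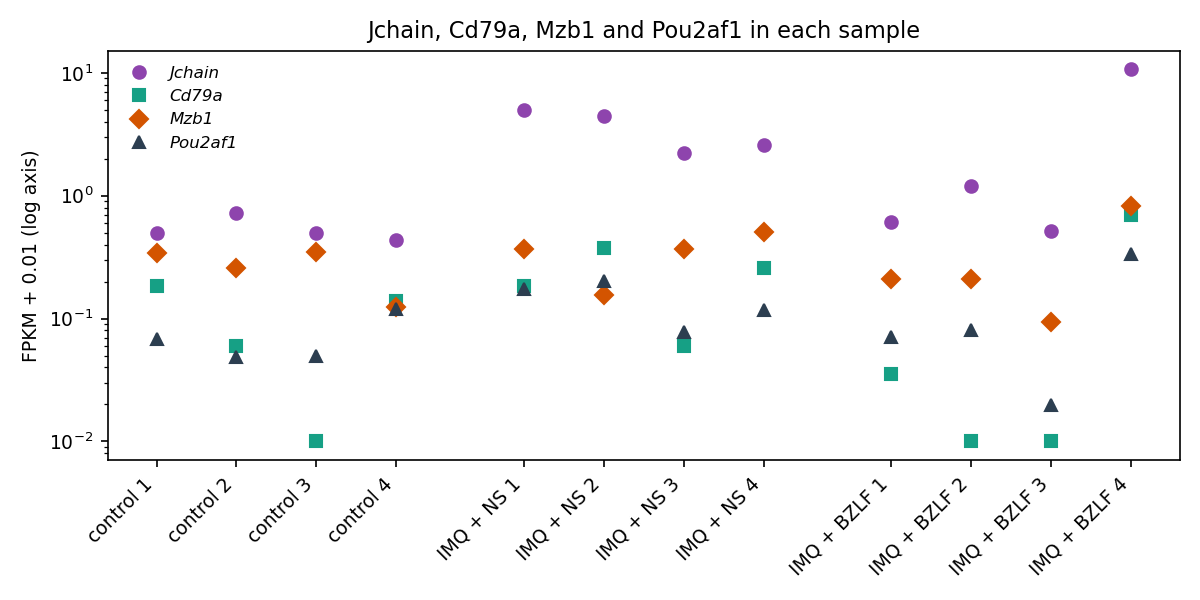
Jchain, Cd79a, Mzb1 and Pou2af1 (vertical axis, FPKM + 0.01 on a log axis) in each of the 12 samples. Points at 0.01 are listed at 0 FPKM. All 4 genes are highest in IMQ + BZLF replicate 4, where Jchain reaches 10.7 and Cd79a 0.682 FPKM.

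Markers of other cell types were counted by the same rule. Of all tested genes, 11.4% were called higher and 11% lower in IMQ + NS versus control samples. In IMQ + BZLF versus IMQ + NS samples 0.321% were called higher and 2.2% lower. At an unadjusted limma p under 0.05, whatever the size, 7.96% and 14.8% were. The 1 of 10 T cell genes called higher and the 1 of 10 macrophage genes called lower in the first comparison lay close to these shares. Of 9 neutrophil genes, 7 were called higher and 1 lower in IMQ + NS versus control samples, and 8 lower and 1 higher in IMQ + BZLF versus IMQ + NS samples. Their summed level was 39.7 to 57.4 FPKM in control, 3130 to 9894 FPKM in IMQ + NS and 65.3 to 85.6 FPKM in IMQ + BZLF samples. In IMQ + NS samples S100a8 and S100a9 made up nearly all of it, with means of 3010 and 2909 FPKM in a mean sum of 5958 FPKM. No other gene of the list had a group mean above 14.8 FPKM, so the sum is mainly the level of these 2 genes. Of 7 genes of gamma delta and IL-17-producing T cells, 3 were called higher and 1 lower in the first comparison and 2, Il17a and Il17f, lower in the second, with summed levels of 17.95 to 20.0, 15.4 to 19.6 and 11.4 to 15.4 FPKM in control, IMQ + NS and IMQ + BZLF samples. Of 7 keratinocyte genes, 6 were called higher in the first comparison and 3 lower in the second, with sums of 1866 to 2973, 5850 to 9258 and 2245 to 3801 FPKM. All 7 skeletal muscle genes were called lower in IMQ + NS than in control samples, with sums of 658 to 1596 against 3457 to 8464 FPKM, the lowest control value being that of replicate 2. Of 6 adipocyte genes 4 were called lower in that comparison, and of 7 mast cell genes 1 was called higher and 2 lower, while 0 genes of the muscle, adipocyte and mast cell lists were called by limma in IMQ + BZLF versus IMQ + NS samples (at an unadjusted p under 0.05, 4 genes of the first 2 lists were higher and 1 mast cell gene lower). Of 10 T cell genes 1 was called higher in the first comparison and 1, Icos, lower in the second. Of 10 macrophage genes 1 was called lower in each comparison, Adgre1 in the second, and of 9 dendritic cell genes 4 and then 2 (Itgax and Ccr7) were called lower. The part of these cell types in the values of the 6 genes was not tested.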

How the data were processed

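RNA-seq values of 12 samples of mouse back skin, 4 per group, were used, with groups taken from the sample labels. The authors deposited 1 FPKM value per gene and sample, normalized for length and depth, not logged and not pooled. The submitters' processing notes name fastp, HISAT2, HTSeq, R 3.2.0 and the mm10 build, whereas the study's methods name Bowtie2 and eXpress for the values and DESeq2 for the tests. The library kit and RNA extraction also differ between the labels and the methods, and the annotation and the use of strand are not given in the sources used here. Each sample held 38246616 to 40954090 counts, rebuilt from the FPKM steps, and 18498 of 18505 genes (99.96%) had whole counts within 0.02 in all 12 samples. A count of 3 was taken as the floor of a value of 0.

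Genes with a mean of at least 0.1 FPKM over the 12 samples (15288) were tested on log2(FPKM + 0.1) with limma 3.58.1 in R 4.3.3, with a variance trend, for each pair of groups, with Benjamini-Hochberg adjustment over all tested genes. Calling required an adjusted p under 0.05 and a log2 change larger than 1 in size. The constant of 0.1 understates the change of low genes. The study tested counts, for which the FPKM scale with limma stands in, and limma-voom on the rebuilt counts was added as an alternative after the data had been seen. The study's rule for genes names no adjustment of p, so the adjustment made here departs from it. Each of the 6 genes was also compared by an exact two-sided permutation test. Python 3.11.15 with pandas 2.3.3, scipy 1.17.1 and matplotlib 3.10.9 was used for counts, sequences and figures. The fits were tested on simulated data.

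The 6 genes, the lists and the tests were chosen with earlier results of these data known. By rule, named genes are the 6, every list gene called between IMQ + BZLF and IMQ + NS samples, of each B lineage list the 3 called genes with the largest change in IMQ + NS against control samples, and the 3 genes most correlated with each of the 5 tested genes. As exceptions, the keratinocyte genes and the neutrophil genes other than S100a8 and S100a9 are given as counts. Irf4, Slamf7, Ccl19, Cd81 and the genes said to have been picked were named outside the rule. The lists covered B lineage genes (7 lists), T cells, gamma delta and IL-17-producing T cells, macrophages, dendritic cells, mast cells, neutrophils, skeletal muscle, adipocytes and keratinocytes. Alternatives were constants of 0.01 and 1, no filter or a mean of at least 1 FPKM, median ratio scaling, quantile normalization, all 12 samples in 1 fit, no trend, robust moderation, a replicate block, other call rules and leaving out each sample. Columns belonging to no sample numbered 0. Some list genes are counted but not named, since their own values are not reported here.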

Additional observations from a re-analysis of the deposited data

Results flagged for a closer look

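In each of the 18 sets of 4 samples (6 genes in 3 groups), the highest and the lowest sample were set against the others by Dixon's test on log2(FPKM + 0.1), which flags about 1 in 20 sets by chance. A gap is given as a share of the range of the 4 values on that scale. Cd79a in IMQ + BZLF replicate 4, at 0.682 FPKM, stood apart from the other IMQ + BZLF samples, which had 0 to 0.0257 FPKM, with a gap of 0.889 of the range (0.962 on the FPKM scale). Jchain had its highest value in the same sample, with a gap of 0.738 on the log2 scale, not past the 95% critical value, and of 0.933 on the FPKM scale, past it. Ms4a1 in control replicate 4, at 0.00865 FPKM, stood below the other controls, which had 0.0429 to 0.0504 FPKM, with a gap of 0.843 of the range on the log2 scale and 0.821, not past the critical value, on the FPKM scale. It rested on 1 fragment against 5 or 6.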

How the results depend on the processing

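Of the log2 fold changes of single genes under the alternatives, 290 kept their sign and their side of the threshold, 2 fell below it, 8 passed it and 9 changed sign. In IMQ + NS against control samples 4 of the 6 genes were called higher except with a constant of 1, which left 2, with Cd22 (0.50) and Blk (0.73) no longer called, and a mean of at least 1 FPKM, which left 3 because Cd22 was not tested. Between IMQ + BZLF and IMQ + NS samples the number called lower was 2 with quantile normalization (which added Cd22, limma adjusted p = 0.0358), 2 with the replicate block (which added Blk, limma adjusted p = 0.0163), 3 by unadjusted p and 1 to 2 when 1 sample was left out. It was 2 without IMQ + BZLF replicate 4, which added Jchain, and without IMQ + NS replicate 4, which added Cd22 (-1.31, limma adjusted p = 0.0397). In IMQ + BZLF against control samples 1 gene, Cd22, was called higher with no limit on the fold and by limma-voom (1.79, limma adjusted p = 0.0445), an alternative chosen after seeing the data. All changes of sign were in that comparison, where leaving out 1 sample gave -0.699 to 0.29 for Cd79a, -0.0224 to 0.442 for Cd79b and -0.00556 to 0.494 for Blk. Cd79a was at -0.659 with a constant of 0.01, -0.000914 with median ratio scaling, -0.0742 with quantile normalization, -0.545 by limma-voom, and -0.699, -0.0593 and -0.254 without IMQ + BZLF replicate 4, control replicate 2 and control replicate 3. Blk was at -0.00556 without control replicate 2 and Cd79b at -0.0224 without control replicate 4. The cause was not tested. Among the other B lineage genes, the 8 higher and 9 lower in IMQ + NS against control samples became 5 and 4 with a constant of 1 or a mean of at least 1 FPKM, and 22 and 15 with no limit on the fold. The 11 lower in IMQ + BZLF against IMQ + NS samples became 5 with a constant of 1, 22 with no limit on the fold and 6 to 13 when 1 sample was left out (6 without IMQ + BZLF replicate 1 or IMQ + NS replicate 3), and the 0 higher became 1 with the replicate block, by unadjusted p and without IMQ + BZLF replicate 1. Against control, the 11 lower became 4 with a constant of 1, 5 with a mean of at least 1 FPKM and 31 with no limit on the fold, and the 3 higher became 5 with no limit on the fold and without control replicate 2. With 1 sample left out, the counts against control were 3 to 5 higher and 8 to 11 lower, and those of IMQ + NS against control 7 to 9 in each direction. Over all genes, the 1740 higher and 1678 lower in IMQ + NS against control samples became 4427 and 4142 with no limit on the fold, and 1023 lower with a constant of 1. The 49 higher and 336 lower in IMQ + BZLF against IMQ + NS samples became 195 and 791 with no limit on the fold, 17 and 188 with a constant of 1, 88 higher by unadjusted p, and 19, 25, 29 and 78 higher without IMQ + BZLF replicate 2, IMQ + NS replicates 3 and 4 and IMQ + BZLF replicate 1. The 1475 higher and 1542 lower against control became 3640 and 4458 with no limit on the fold, and 979 and 865 with a constant of 1. The main fits did not treat samples as paired by replicate number, and whether the numbers pair them is not settled here. Correlations of same-numbered deviations were between -0.152 and 0.26 over the 3 comparisons. In 7 of 12 matches the sample of the first-named group correlated best with its own number. Replicates 3 and 4 did so in each of the 3 comparisons. IMQ + BZLF samples entered these matches more than once, and controls were only matched against. Depth limits Cd79a and Ms4a1 most, which had at most 28 and 13 fragments in a sample.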
